A study of Mus musculus with 77 samples.

Results

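The core circadian clock genes of the mouse were followed in striatal spiny projection neurons of a parkinsonian model. The set was fixed by name, with earlier results of these data known. It consisted of Arntl, Clock, Npas2, Per1, Per2, Per3, Cry1, Cry2, Nr1d1 and Dbp. On the array, 23 of 45101 probe sets carried a single symbol from this set, and all 10 genes were among the 13271 of 18194 genes that passed the filter on low values. Of their 23 probe sets, 19 passed it.

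The circadian clock is a loop of transcription and translation that runs in most cells. CLOCK or its relative NPAS2 pairs with the Arntl product (BMAL1) on E-box elements and drives the Per and Cry genes, whose proteins return to the nucleus and inhibit that pair. In a second loop the same pair drives Nr1d1, whose product (REV-ERB alpha) represses Arntl, and Dbp, a factor that acts on D-box elements in output genes. Per1 and Per2 also carry regulatory elements that answer cAMP and calcium signalling through CREB, and dopamine acts on cAMP in striatal neurons through D1 and D2 receptors.

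The RNA came from translating ribosome affinity purification, in which a ribosomal protein tagged with green fluorescent protein is expressed from a bacterial artificial chromosome and messenger RNA bound to tagged ribosomes is pulled down. Direct pathway neurons (dSPN) came from Drd1::EGFP-L10a mice and indirect pathway neurons (iSPN) from Drd2::EGFP-L10a mice, so the tag was in whichever cells use that receptor gene's regulatory sequence. All mice were C57BL/6J males of 9 to 14 weeks, and each of the 77 arrays held RNA of the dorsal striatum of 1 animal, from the operated side. Lesioned mice had 6-hydroxydopamine (6-OHDA, 3.2 µg/µl), which kills dopamine neurons, injected into the right medial forebrain bundle, and mock-lesioned mice had the ascorbate and saline vehicle. Lesioned mice were kept for the study only if they passed behavioural tests of the lesion. From 3 weeks after surgery lesioned mice received daily saline, low levodopa or high levodopa, and mock-lesioned mice received saline. Low levodopa meant 1 mg/kg until day 3 and 2 mg/kg from day 4 to day 9, and high levodopa 3 mg/kg and 6 mg/kg over the same days. Each dose came with 12 mg/kg benserazide, which blocks conversion of levodopa outside the brain. The submitters expected severe dyskinesia from the high regimen and restored limb use without conspicuous dyskinesia from the low one. The dSPN arrays numbered 11 for lesion with saline, 12 for low levodopa, 11 for high levodopa and 10 for mock lesion, and the iSPN arrays 7, 8, 8 and 10. Mice were killed right after the last behavioural session; the sources used here do not give the hour of the day, and its part in any difference below was not tested.

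The median correlation of an array with the others of its group lay between 0.939 and 0.980. Drd1 averaged 11.45 to 11.80 in the 4 dSPN groups and 9.27 to 10.07 in the 4 iSPN groups, and Drd2 averaged 6.60 to 7.55 in the dSPN groups and 12.22 to 12.42 in the iSPN groups, on the log2 scale of the array. In such pulled-down material fewer cells of a type and less RNA per cell cannot be told apart.

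Promoter windows from RefSeq (GRCm38.p6, 250 bases before to 50 after an annotated start) were found for 9 of the 10 genes, in 13 windows. Per2 had no window. They were searched on both strands for the E-box CACGTG, the cAMP response element TGACGTCA, the D-box TTATGTAA and the ROR element core AGGTCA, to which REV-ERB proteins also bind. The windows of Per1, Cry1 and Per3 are shown because they hold an E-box or D-box, and that of Dbp as a strongly lowered gene whose window holds none. Capitals mark motif matches.
Per1, window 1, chr11:69098699-69098998, plus strand: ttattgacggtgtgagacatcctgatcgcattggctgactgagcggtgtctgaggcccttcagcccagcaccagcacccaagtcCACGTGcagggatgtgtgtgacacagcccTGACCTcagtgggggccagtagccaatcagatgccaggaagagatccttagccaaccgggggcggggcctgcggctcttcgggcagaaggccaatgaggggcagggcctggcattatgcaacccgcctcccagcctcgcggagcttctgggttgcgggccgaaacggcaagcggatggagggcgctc
Cry1, chr10:85185005-85185304, minus strand: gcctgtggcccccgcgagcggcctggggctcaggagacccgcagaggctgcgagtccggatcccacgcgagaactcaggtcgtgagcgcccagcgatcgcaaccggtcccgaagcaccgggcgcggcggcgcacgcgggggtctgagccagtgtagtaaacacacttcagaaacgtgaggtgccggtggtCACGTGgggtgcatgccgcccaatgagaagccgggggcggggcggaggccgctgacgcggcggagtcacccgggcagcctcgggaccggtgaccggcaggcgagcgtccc
Per3, chr4:151044616-151044915, minus strand: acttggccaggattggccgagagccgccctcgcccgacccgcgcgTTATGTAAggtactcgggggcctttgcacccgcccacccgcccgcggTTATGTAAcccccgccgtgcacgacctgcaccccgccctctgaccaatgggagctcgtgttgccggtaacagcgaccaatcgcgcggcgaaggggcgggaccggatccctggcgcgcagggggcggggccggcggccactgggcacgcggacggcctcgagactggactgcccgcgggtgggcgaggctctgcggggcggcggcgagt
Dbp, chr7:45704997-45705296, plus strand: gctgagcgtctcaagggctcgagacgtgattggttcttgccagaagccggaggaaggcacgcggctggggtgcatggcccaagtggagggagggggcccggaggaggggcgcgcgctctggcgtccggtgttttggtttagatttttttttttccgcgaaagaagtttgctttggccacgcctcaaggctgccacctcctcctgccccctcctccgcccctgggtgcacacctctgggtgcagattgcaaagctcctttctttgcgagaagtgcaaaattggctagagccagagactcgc

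Relative to the start, the Per1 window held an E-box at position -166 and, on the other strand, a ROR element core (TGACCT) at -137. The Cry1 window held an E-box at -60. The Per3 window held a D-box at -205 and another at -158. A ROR element core was also found in window 2 of Arntl, at 31, and in window 3 of Clock, at -119. No motif searched was in the Dbp window, and none was found in the windows of Nr1d1, Cry2 or Npas2. Of all 32851 promoter windows, 7.15% held the E-box, 1.79% the cAMP response element, 0.938% the D-box and 16.3% the ROR element core. The cAMP response element in this full form was in none of the windows searched, which do not include Per2. These are matches of letters, and no binding was measured. Only these exact letters within 300 bases were searched, so a gene without a match here may hold such elements elsewhere or in another form.

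Differences between groups were tested with limma over all 13271 genes, and a gene was called where the Benjamini-Hochberg adjusted p was under 0.05. Changes are differences of log2 means with their standard error (SE). In lesioned dSPN, 9 of the 10 clock genes were called under high levodopa (3 higher, 6 lower) and 8 under low levodopa (3 higher, 5 lower), each against lesion with saline. Calls were frequent there in general: 45.6% of all genes tested were called under high levodopa and 34.1% under low levodopa. The median absolute change of the 10 genes was 0.92 under high levodopa and 0.72 under low levodopa, beside 0.30 and 0.23 over all genes tested. The members were chosen with earlier results of these data known, so these values describe the set and test nothing about it. The low-levodopa and high-levodopa comparisons use the same lesion-saline arrays. In dSPN the low-levodopa arrays share no run (stretch of title numbers) with them, so low levodopa and run cannot be told apart directly.

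**Figure D1:**
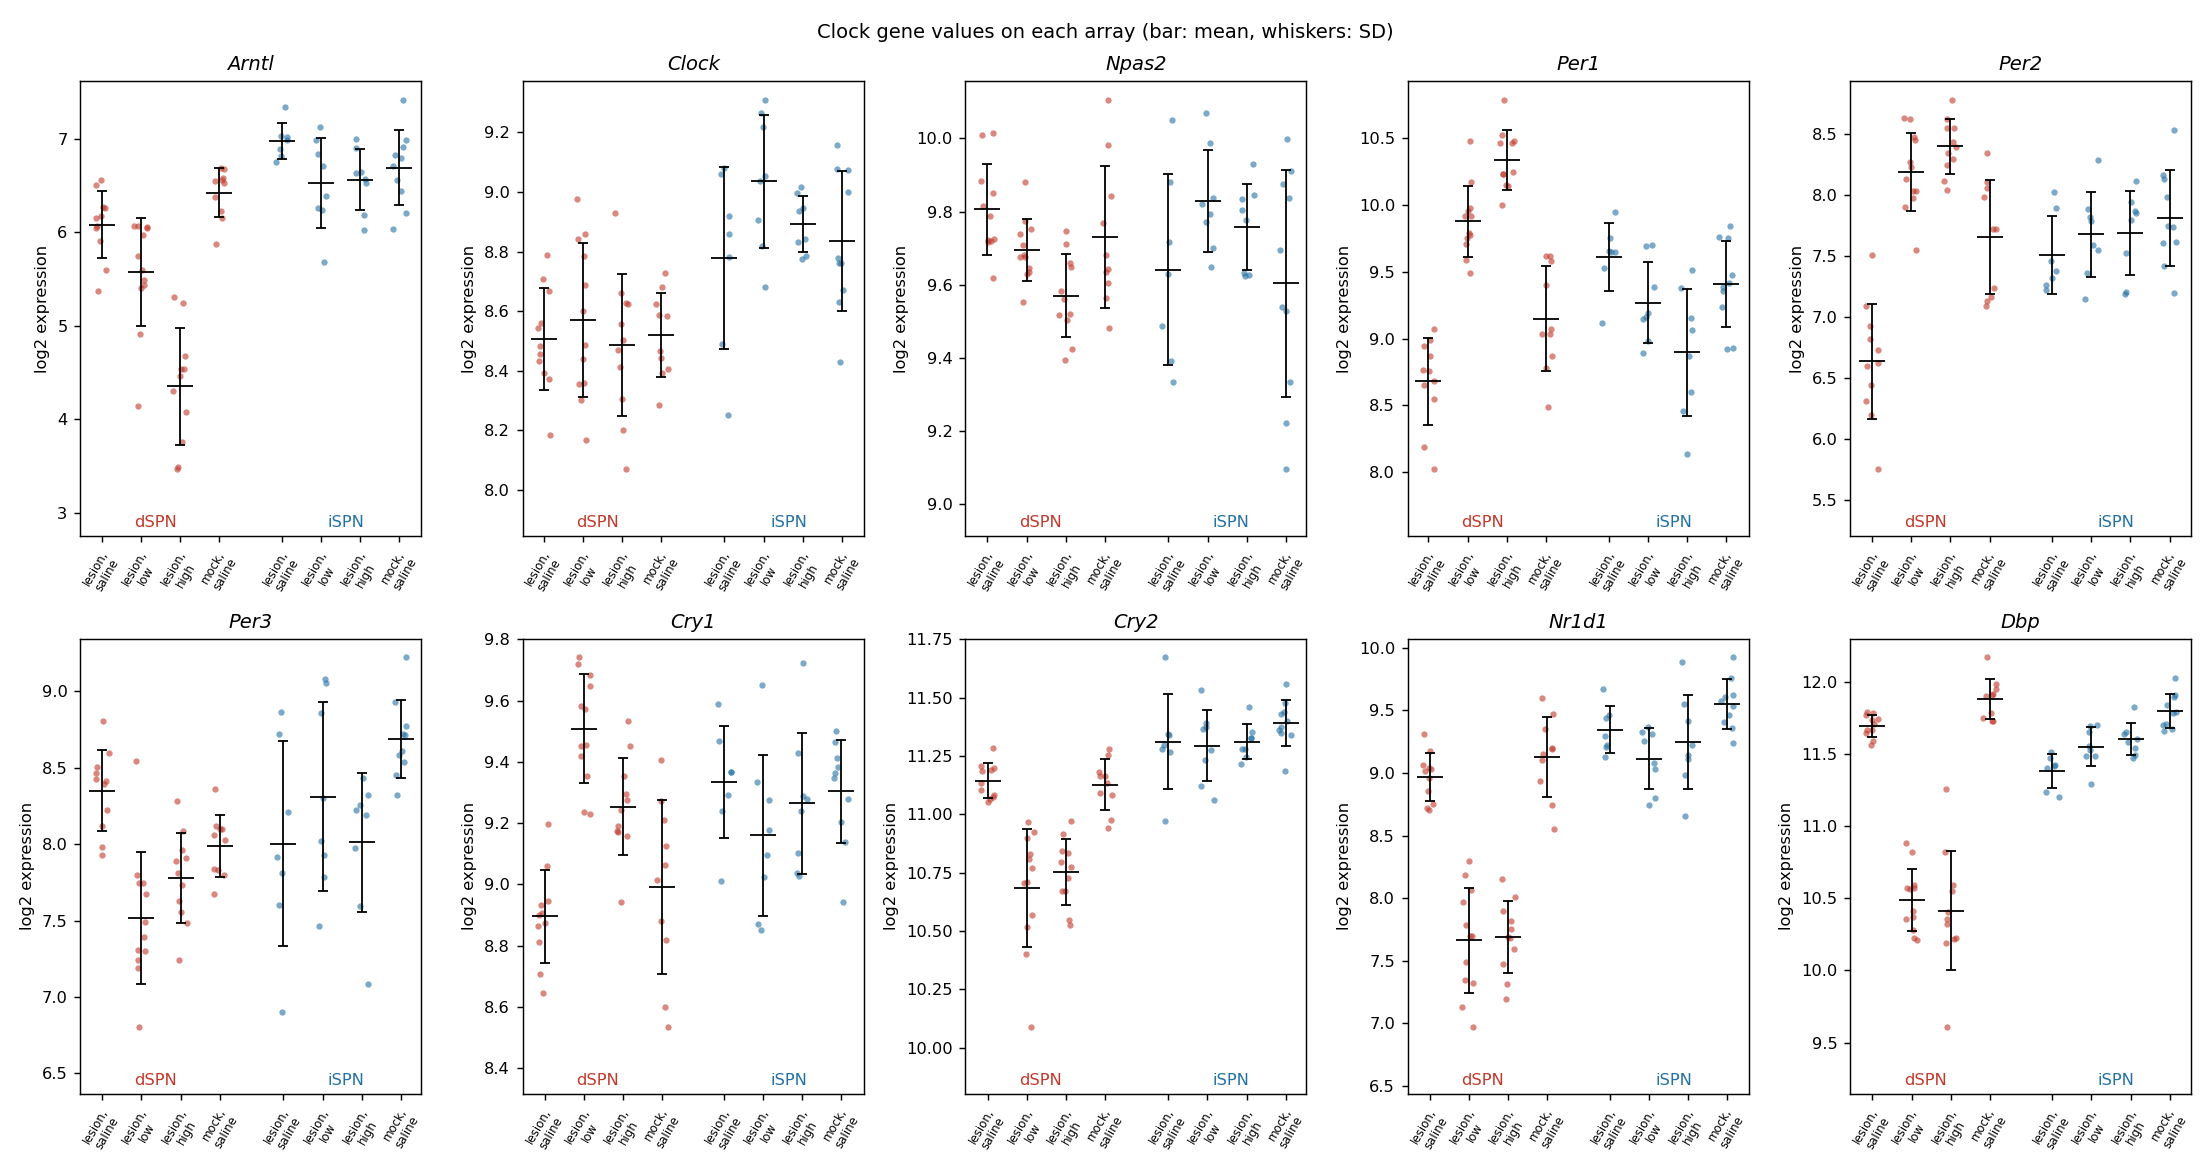
Log2 expression of the 10 clock genes on each of the 77 arrays, 1 panel a gene; red points are dSPN arrays and blue points iSPN arrays, in the order lesion with saline, low levodopa, high levodopa and mock lesion, with the mean as a bar and SD as whiskers. In dSPN the levodopa groups stand apart from lesion with saline for Per1, Per2, Cry2, Nr1d1 and Dbp, while the blue points of lesioned mice with saline and with levodopa overlap for these genes.

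Per1 encodes the Period protein whose gene responds fastest to light and cAMP in other tissues. In dSPN its log2 values (lowest, median, highest) were 8.02, 8.76 and 9.07 after lesion with saline, 9.49, 9.86 and 10.48 under low levodopa, 10.00, 10.25 and 10.79 under high levodopa, and 8.49, 9.05 and 9.62 in mock-lesioned mice. Every levodopa array lay above every lesion-saline array. Per1 rose by 1.20 (SE 0.13, adjusted p = 2.02e-11) under low and by 1.66 (SE 0.14, adjusted p = 4.24e-17) under high levodopa, which is 2.29-fold and 3.16-fold. It was also among the 2 clock genes that separated the regimens, at 0.46 higher under high than low levodopa (SE 0.13, adjusted p = 0.0227). After the lesion alone Per1 was at -0.47 against mock (SE 0.14, adjusted p = 0.0537), which did not pass here and passed under 6 of 9 alternative settings.

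In iSPN, Per1 went the other way. Its values there were 9.12, 9.65 and 9.95 after lesion with saline, 8.90, 9.18 and 9.70 under low levodopa, 8.13, 8.97 and 9.52 under high levodopa, and 8.93, 9.40 and 9.84 in mock-lesioned mice, and these ranges overlapped. It fell by 0.72 under high levodopa (SE 0.17, adjusted p = 0.00219); the low-levodopa change of -0.34 (SE 0.17, adjusted p = 0.269) did not pass. The effect of high levodopa on Per1 differed between dSPN and iSPN by 2.37 (SE 0.22, adjusted p = 1.32e-14), and that of low levodopa by 1.54 (SE 0.21, adjusted p = 6.62e-08).

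Per2, the Period gene whose loss shortens and then abolishes rhythm in mice, was the clock gene that fell after the lesion in dSPN. Its values there were 5.75, 6.62 and 7.51 after lesion with saline, 7.55, 8.18 and 8.64 under low levodopa, 8.04, 8.39 and 8.78 under high levodopa, and 7.09, 7.72 and 8.35 in mock-lesioned mice. All levodopa arrays lay above all lesion-saline arrays, whereas lesion-saline and mock arrays overlapped. The lesion lowered Per2 to 6.64 ± 0.47 (SD, n = 11), against 7.66 ± 0.47 (SD, n = 10) in mock-lesioned mice, a change of -1.02 (SE 0.16, adjusted p = 8.94e-06). A second bright probe set of Per2 gave -0.37 (SE 0.21, adjusted p = 0.52) and did not pass. Read from the brighter probe set, Per2 was the only member called of 10, where 2.48% of all genes were called. Low levodopa raised it by 1.56 (SE 0.15, adjusted p = 1.48e-13) and high levodopa by 1.76 (SE 0.16, adjusted p = 9.34e-16) over lesion with saline, and it then stood 0.54 (SE 0.16, adjusted p = 0.00586) and 0.74 (SE 0.16, adjusted p = 9.76e-05) above mock. In iSPN the group means of Per2 were 7.51 to 7.81, and no comparison there called it.

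Per3, the Period gene that is not needed for rhythm, moved opposite to Per1 and Per2 in dSPN. Its dSPN values were 7.93, 8.41 and 8.81 after lesion with saline, 6.80, 7.44 and 8.54 under low levodopa, 7.24, 7.81 and 8.28 under high levodopa, and 7.67, 8.04 and 8.36 in mock-lesioned mice. The levodopa ranges lay lower but overlapped that of lesion with saline. Per3 fell by 0.83 (SE 0.17, adjusted p = 4.68e-05) under low and by 0.57 (SE 0.17, adjusted p = 0.00448) under high levodopa. With the mean of astrocyte and oligodendrocyte markers as a covariate these changes were -0.50 (adjusted p = 0.0672) and -0.23 (adjusted p = 0.433). In iSPN the lesion lowered Per3 to 8.004 ± 0.67 (SD, n = 7), against 8.69 ± 0.25 (SD, n = 10) in mock-lesioned mice, a change of -0.68 (SE 0.20, adjusted p = 0.0234). On the iSPN arrays alone that adjusted p was 0.142, and the mean over the probe sets of Per3 gave -0.16 (adjusted p = 0.409).

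The Cry genes encode the cryptochromes, the stronger inhibitors of the loop, and they changed in opposite directions in dSPN. Cry1 had 8.65, 8.90 and 9.20 after lesion with saline, 9.23, 9.51 and 9.74 under low levodopa, 8.94, 9.24 and 9.54 under high levodopa, and 8.54, 9.04 and 9.41 in mock-lesioned mice. The low-levodopa arrays all lay above the lesion-saline arrays, by a narrow gap, and the high-levodopa arrays overlapped them. Cry1 rose by 0.61 (SE 0.09, adjusted p = 2.24e-08) under low and by 0.36 (SE 0.09, adjusted p = 0.000537) under high levodopa.

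Cry2 had 11.05, 11.13 and 11.29 after lesion with saline, 10.09, 10.74 and 10.97 under low levodopa, 10.53, 10.77 and 10.97 under high levodopa, and 10.94, 11.15 and 11.28 in mock-lesioned mice. Every levodopa array was below every lesion-saline array. It fell by 0.46 (SE 0.07, adjusted p = 3.90e-08) under low and by 0.39 (SE 0.07, adjusted p = 1.52e-06) under high levodopa, beside an SD of 0.07 in the lesion-saline group.

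Nr1d1 and Dbp, the direct outputs of the activator pair, were the most lowered clock genes under low levodopa. Nr1d1 in dSPN had 8.70, 9.02 and 9.31 after lesion with saline, 6.97, 7.70 and 8.29 under low levodopa, 7.19, 7.69 and 8.15 under high levodopa, and 8.56, 9.17 and 9.60 in mock-lesioned mice. No levodopa array reached the lowest lesion-saline or mock array. Nr1d1 fell by 1.30 (SE 0.12, adjusted p = 2.37e-14) under low and by 1.28 (SE 0.13, adjusted p = 5.82e-14) under high levodopa, 2.47-fold and 2.42-fold lower, and the regimens differed by only 0.03 (SE 0.12, 95% interval -0.22 to 0.27). In iSPN its group means were 9.11 to 9.55, and the one call was a fall of 0.43 under low levodopa against mock (SE 0.14, adjusted p = 0.0303). The iSPN low-levodopa and mock arrays share no run, so low levodopa and run cannot be told apart directly in that call.

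Dbp had 11.56, 11.71 and 11.79 after lesion with saline, 10.21, 10.49 and 10.88 under low levodopa, 9.61, 10.35 and 11.25 under high levodopa, and 11.72, 11.90 and 12.17 in mock-lesioned mice. The levodopa arrays again lay wholly below the other dSPN arrays. Dbp fell by 1.21 (SE 0.09, adjusted p = 1.09e-19) under low and by 1.28 (SE 0.09, adjusted p = 7.51e-21) under high levodopa, 2.31-fold and 2.43-fold lower. Its SD over arrays was 0.41 under high levodopa and 0.08 after lesion with saline. This difference in spread was not tested.

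In iSPN, Dbp had 11.20, 11.41 and 11.52 after lesion with saline and 11.66, 11.79 and 12.02 in mock-lesioned mice, and these ranges did not overlap. The lesion lowered it by 0.42 (SE 0.10, adjusted p = 0.00528), while the iSPN levodopa changes of 0.17 and 0.22 (SE 0.11 each) over lesion with saline did not pass. Dbp and Per3 were the 2 members called after the lesion in iSPN, where 6.2% of all genes were called and 0.264% lay wholly below mock.

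Among the activators, Arntl was called under both regimens and between them. Its dSPN values were 5.37, 6.16 and 6.56 after lesion with saline, 4.15, 5.68 and 6.07 under low levodopa, 3.47, 4.46 and 5.31 under high levodopa, and 5.88, 6.54 and 6.69 in mock-lesioned mice. The high-levodopa arrays lay below all lesion-saline arrays, and the low-levodopa arrays overlapped both. Arntl fell by 0.51 (SE 0.18, adjusted p = 0.0240) under low and by 1.73 (SE 0.19, adjusted p = 1.48e-12) under high levodopa, and was 1.23 lower under high than low levodopa (SE 0.18, adjusted p = 1.78e-06). Between the regimens 2 of the 10 members were called, Arntl and Per1, where 6.8% of all genes were. Arntl was read by a single tested probe set of low signal, near the filter of 3.55 on some arrays. Its low-levodopa change was -0.28 (adjusted p = 0.0936) when averaged with its other, dimmer probe set. In iSPN its group means were 6.53 to 6.98 and none of its changes passed.

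Npas2, the forebrain partner of BMAL1, had 9.62, 9.79 and 10.02 after lesion with saline, 9.55, 9.68 and 9.88 under low levodopa and 9.39, 9.56 and 9.75 under high levodopa in dSPN. These ranges overlapped. It fell by 0.24 under high levodopa (SE 0.08, adjusted p = 0.0105); with the glial markers as a covariate that was -0.16 (adjusted p = 0.214), and with each array centred on its median -0.16 (adjusted p = 0.111). Clock was at group means of 8.49 to 8.57 in dSPN on the probe set that represents it, and its changes of 0.06 and -0.02 (SE 0.09 each) did not pass.

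The plot of changes places these values side by side. Counted over the 10 genes, arrays did not overlap lesion with saline for 3 genes upward (Per1, Per2, Cry1) and 3 downward (Cry2, Nr1d1, Dbp) under low levodopa, where 3.13% and 1.67% of all genes did so. Under high levodopa it was 2 upward (Per1, Per2) and 4 downward (Arntl, Cry2, Nr1d1, Dbp), where 6.34% and 5.05% did.

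**Figure D2:**
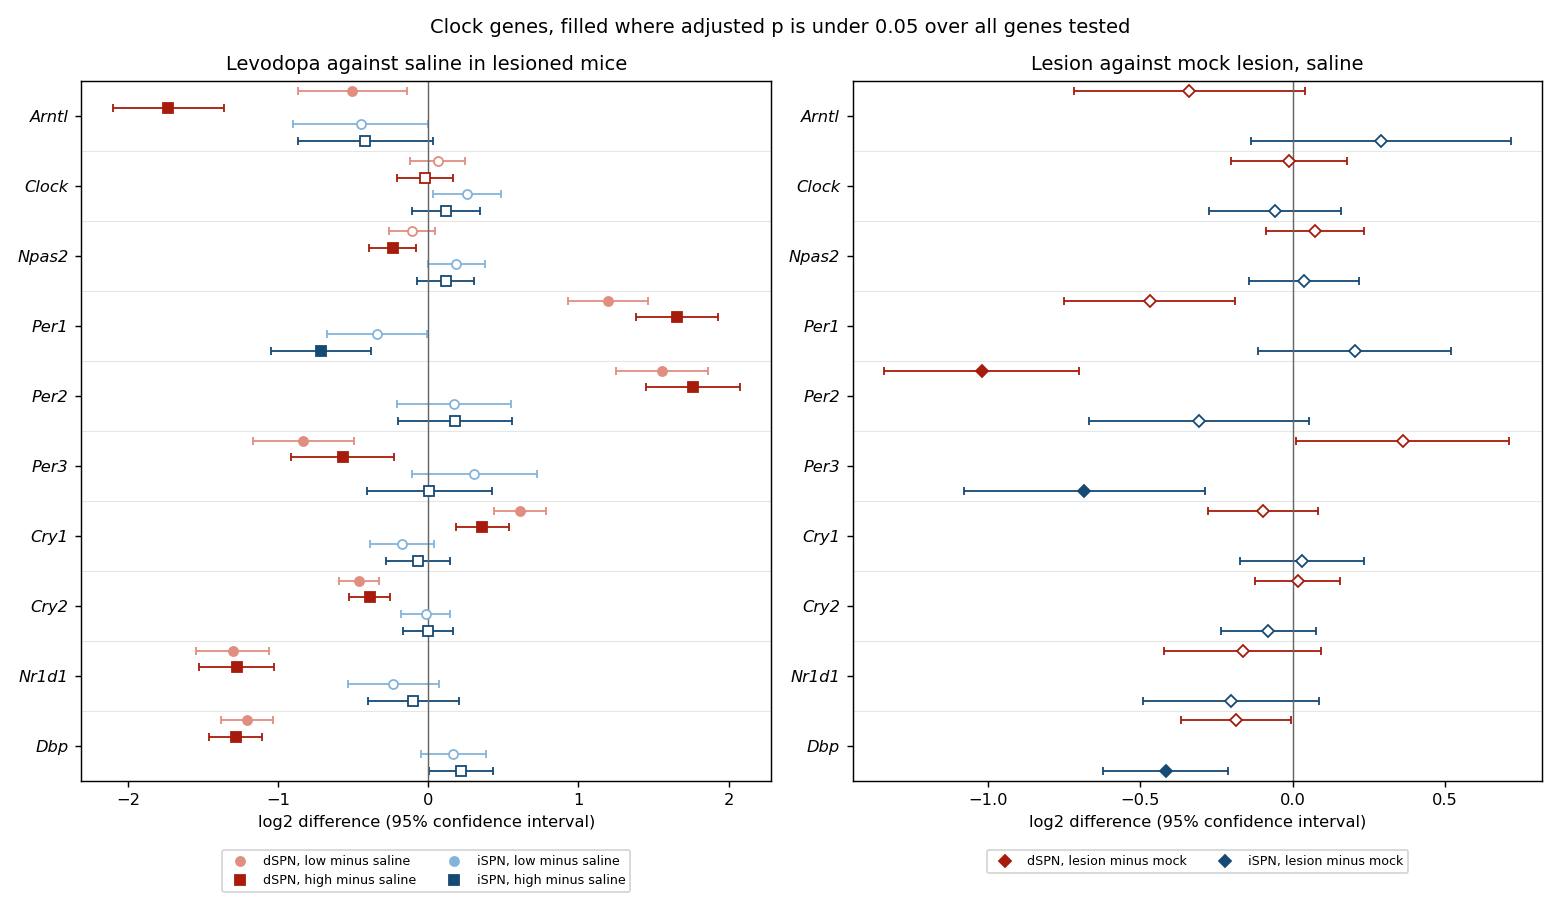
Log2 differences with 95% confidence intervals for the 10 clock genes, at left for low and high levodopa minus saline in lesioned mice and at right for lesion minus mock lesion; red marks are dSPN, blue marks iSPN, and filled marks passed adjusted p under 0.05. At left the red marks run from -1.73 for Arntl to 1.76 for Per2, and the blue marks hold 1 call, Per1 at -0.72.

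Against mock-lesioned mice, the levodopa-treated dSPN differed for 8 of the 10 members under low levodopa (30.2% of all genes called) and for 7 under high levodopa (43.4% called). Nr1d1 was 1.47 lower (SE 0.13, adjusted p = 6.66e-16) and Dbp 1.39 lower (SE 0.09, adjusted p = 4.82e-22) under low levodopa than mock, and 1.44 lower (SE 0.13) and 1.47 lower (SE 0.09) under high levodopa. Arntl was 2.07 lower under high levodopa than mock (SE 0.19, adjusted p = 4.24e-15). The exceptions under high levodopa were Clock, Npas2 and Per3, with changes of -0.03, -0.16 and -0.21.

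In iSPN, none of the 10 genes was called under low levodopa (4.18% of all genes), 1 under high levodopa (Per1, 9.86% of all genes) and none between the regimens (0.173%). At an unadjusted p under 0.05 the counts were 3, 2 and 1. Against mock, low levodopa called Nr1d1 alone (11% of all genes) and high levodopa called Per1, 0.51 lower (SE 0.15, adjusted p = 0.0116), and Per3, 0.68 lower (SE 0.19, adjusted p = 0.00723), where 18.7% of all genes were called. With run as a fixed block none of these calls against mock stayed, and with the glial covariate neither high-levodopa call did. All iSPN low-levodopa arrays lay in run 7, which held no mock or high-levodopa array. Low levodopa and run cannot be told apart directly in those comparisons.

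The difference between the neuron types was tested as an interaction. The low-levodopa effect differed for 7 of the 10 genes (14.8% of all genes called) and the high-levodopa effect for 8 (25% called), the exceptions being Arntl, Clock and Npas2 for low and Clock and Per3 for high levodopa. With run as a fixed block 7 members were called for low levodopa, 5 for high levodopa and 0 for the lesion. The high-levodopa calls lost were Arntl at -0.995 (adjusted p = 0.0659), Cry1 at 0.49 (adjusted p = 0.0606) and Npas2 at -0.17 (adjusted p = 0.533). For Nr1d1 the high-levodopa effect in dSPN was 1.18 below that in iSPN (SE 0.20, adjusted p = 2.40e-06), and for Dbp 1.50 below (SE 0.14, adjusted p = 2.65e-14). The lesion effect differed for Per3, by 1.04 (SE 0.26, adjusted p = 0.00791), and for Per1, by -0.67 (SE 0.21, adjusted p = 0.0477), where 4.86% of all genes were called. The Per1 value was -0.62 (adjusted p = 0.0789) without the iSPN mock array that correlated least with its group.

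With intact dopamine, 5 of the 10 genes were lower in dSPN than in iSPN and none higher, where 10.9% of all genes were called lower. Per3 averaged 7.99 ± 0.20 in dSPN and 8.69 ± 0.25 in iSPN (SD, n = 10 each), a difference of -0.70 (SE 0.18, adjusted p = 0.00247). Clock was at -0.31 (SE 0.10, adjusted p = 0.0132), Cry1 at -0.31 (SE 0.09, adjusted p = 0.00921), Cry2 at -0.26 (SE 0.07, adjusted p = 0.00393) and Nr1d1 at -0.42 (SE 0.13, adjusted p = 0.0139). The neuron types lie in different runs of arrays (stretches of title numbers), so type and run cannot be told apart in these values. Astrocyte markers averaged 6.33 in dSPN and 6.96 in iSPN of mock-lesioned mice, and oligodendrocyte markers 7.52 in dSPN and 8.44 in iSPN; with their mean as a covariate the Per3 difference was -0.43 (adjusted p = 0.150), the Clock difference -0.21 (adjusted p = 0.220) and the Cry1 difference -0.29 (adjusted p = 0.0583).

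RNA of other cells also moved with levodopa in dSPN. Of 9 oligodendrocyte markers 8 were lower under low and 8 under high levodopa than after lesion with saline, and of 9 astrocyte markers 4 and 6 were lower. The oligodendrocyte list averaged 7.74 after lesion with saline (range 7.27 to 8.50), 6.60 under low levodopa (5.98 to 7.20) and 6.52 under high levodopa (6.02 to 7.29), and the astrocyte list 6.73 (6.51 to 7.17), 5.94 (5.45 to 6.67) and 5.97 (5.42 to 6.58). With the glial mean as a covariate 7 members stayed called under each regimen. Per1 then rose by 1.32 and 1.79, Per2 by 1.57 and 1.78, Nr1d1 fell by 1.39 and 1.36, and Dbp fell by 1.26 and 1.34 under low and high levodopa. The lowest glial mean after lesion with saline was 6.89, and the highest was 6.64 under low and 6.93 under high levodopa. As the groups barely overlap in it, this covariate cannot separate glial RNA from levodopa. Markers of iSPN averaged 6.82 in lesioned dSPN with saline, 6.03 with low levodopa and 6.07 with high levodopa. In iSPN under high levodopa against mock, 8 of 9 oligodendrocyte markers were lower, where 18.7% of all genes were called. Of 9 dSPN markers 6 were lower and 2 higher there. After the lesion in iSPN 4 of 9 dSPN markers were lower and none higher (6.2% of all genes called), and no oligodendrocyte or astrocyte marker was called.

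Within a run, high levodopa could be set against lesion with saline in dSPN on 9 against 6 arrays, and all 9 called members kept their sign there. Per1 was 1.61 higher, Arntl 1.68 lower, Nr1d1 1.28 lower and Dbp 1.25 lower within that run. In dSPN the low-levodopa arrays lay in runs 3 and 4 and the lesion-saline arrays in runs 1 and 2. They share no run, so that comparison has no value within a run there. In iSPN it could be made on 8 against 4 arrays of a run, where Per1 was at -0.35 and Nr1d1 at -0.24. With run as a fixed block, of the called differences that could be fitted 42 stayed called and 16 did not. Among those lost were Arntl under low levodopa in dSPN at -0.41 (adjusted p = 0.411), Npas2 under high levodopa at -0.18 (adjusted p = 0.0916), Per1 between the regimens at 0.46 (adjusted p = 0.373) and Per1 under high levodopa in iSPN at -0.78 (adjusted p = 0.0749). After the lesion in iSPN, Dbp was then at -0.37 (adjusted p = 0.474) and Per3 at -0.68 (adjusted p = 0.507). The difference of the lesion effect between the neuron types was then 1.25 for Per3 (adjusted p = 0.123) and -0.52 for Per1 (adjusted p = 0.642).

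Probe sets of the same gene did not always agree. For Clock, the probe set with the highest signal (1418659_at) did not change, but in dSPN 1418660_at fell by 0.46 (SE 0.13, adjusted p = 0.0031) under low and by 1.09 (SE 0.13, adjusted p = 4.9e-11) under high levodopa, and 1435775_at fell by 0.51 (SE 0.17, adjusted p = 0.015) and by 0.77 (SE 0.17, adjusted p = 0.00014). Per2 rose on 1417602_at and 1417603_at, the second of these by 1.35 (SE 0.20) and 1.79 (SE 0.20), and a dim probe set (1457350_at) stayed at 0.00 and 0.04. The lesion's fall of Per2 in dSPN was called on 1417602_at and not on 1417603_at. Per3 fell under both regimens on 1421087_at alone of 4 tested probe sets, and 1460662_at fell under high levodopa by 0.55 (SE 0.19, adjusted p = 0.013). Both probe sets of Dbp fell, the other one (1418174_at) by 1.26 and 1.39 (SE 0.10 each). The Npas2 calls rest on 1421037_at, and its other tested probe set (1421036_at) followed it at r = -0.08 within groups.

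**Figure D3:**
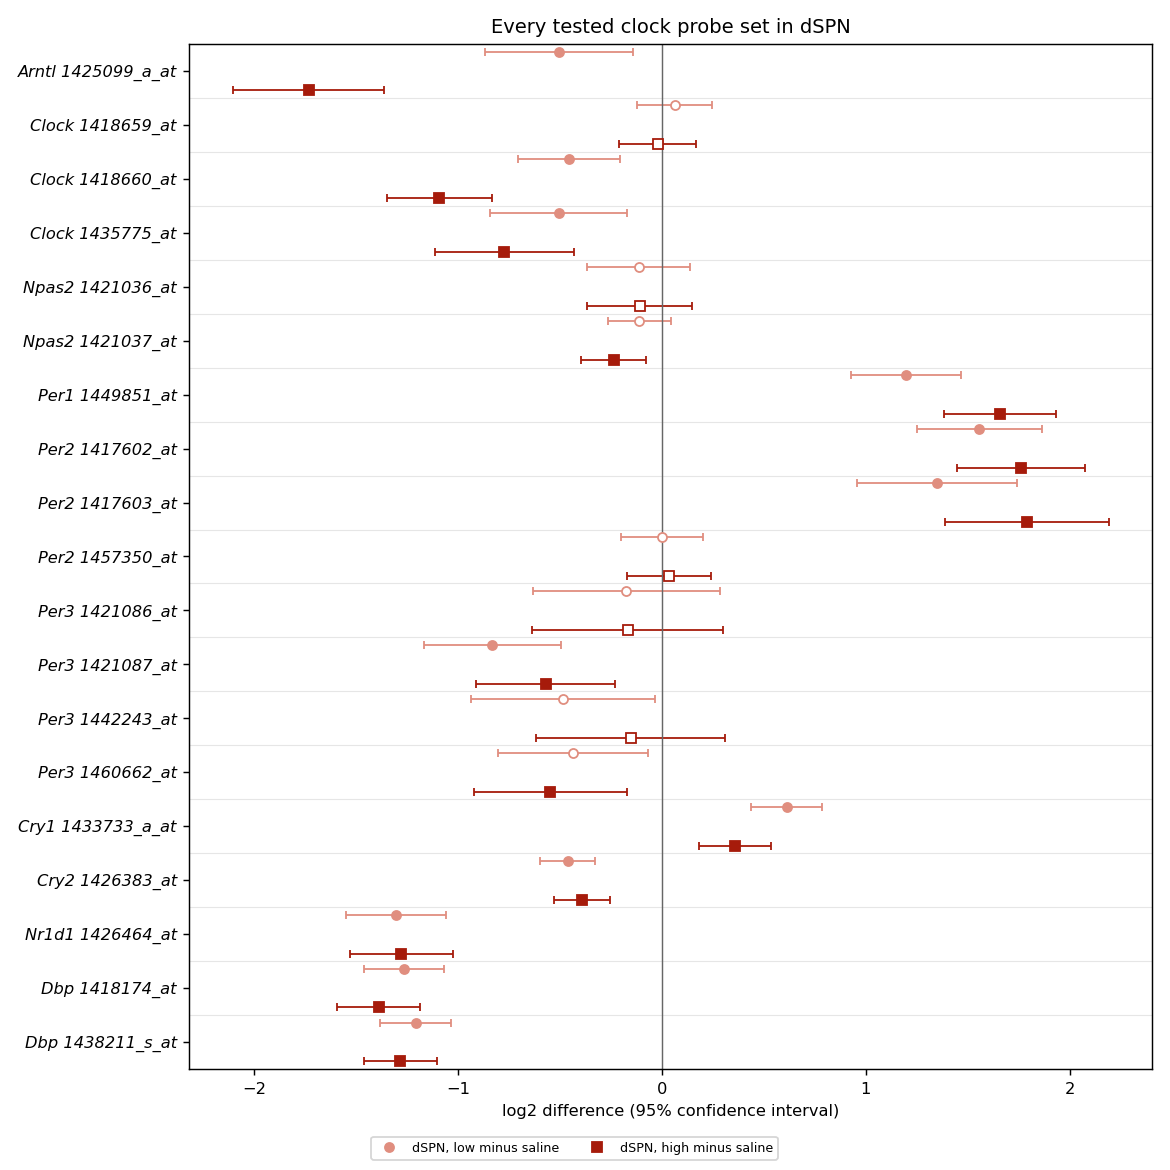
Log2 differences with 95% confidence intervals in dSPN for each of the 19 tested clock probe sets, low (circles) and high (squares) levodopa minus saline in lesioned mice, filled where adjusted p over all tested probe sets was under 0.05. The 2 Dbp probe sets lie together near -1.3, whereas the 3 of Clock spread from 0.06 to -1.09.

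Annotated neighbours share sequence with some members. Dbp and Sphk2, a sphingosine kinase gene, overlap over 741 bases at chr7:45709463-45710203 (GRCm38.p6), and Nr1d1 overlaps Thra, a thyroid hormone receptor gene, over 1075 bases at chr11:98767932-98769006. Sphk2 fell in dSPN by 1.25 under low and by 1.36 under high levodopa (SE 0.07 each), close to Dbp's values, while Thra changed by 0.02 and -0.05 (SE 0.05 and 0.06) and did not pass. Probe positions were not used here, so the signal of Dbp and Sphk2 may overlap in part.

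The genes whose values followed each member most closely were found over the 77 arrays after removing each neuron type's mean, and levodopa-treated dSPN dominate this spread. Dbp was closest to Sphk2 (Pearson r = 0.95), Kalrn (0.86) and Pcmtd1 (0.84), and Nr1d1 to Sphk2 (0.84), Rflnb (0.82) and B3galt5 (0.81). Per1 was closest to Fmnl1 (0.84), Pdp1 (0.81) and Dusp1 (0.81), and Per2 to Pfkfb3 (0.79), Ankrd13a (0.77) and Midn (0.76). Arntl followed Elmo1 (0.77), Lmo3 (0.77) and Crebl2 (0.75), and Cry2 followed Mast3 (0.76), Hdac11 (0.75) and Vps39 (0.75). Cry1 was closest to Pfkfb3 (0.69), Pdp1 (0.69) and Midn (0.67), which were also among the genes nearest to Per1 or Per2. Lower values were found for Per3, with Unc80 (0.64), Tkt (0.62) and Snhg11 (0.59), for Npas2, with Cpsf6 (0.60), Eif4a2 (0.58) and Lrrc58 (0.58), and for Clock, with Zfp652 (0.43), Casc3 (0.42) and Dcp1a (0.42). These values describe the arrays and carry no test.

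Arrays of the same group gave little sign of co-variation. After group means were removed, the 45 pairs of members had Pearson correlations from -0.31 to 0.25 over 77 arrays, and no pair passed a permutation test after adjustment over the 45 pairs (lowest adjusted p = 0.220 for Pearson and 0.105 for Spearman). At an unadjusted p under 0.05, 3 pairs passed by Pearson and 5 by Spearman. Other tested probe sets followed the one used at r from -0.11 to 0.24 within groups for Clock, Npas2, Per2 and Per3. For Dbp that r was 0.56. Where readings of the same gene barely correlate, co-variation between genes could hardly be seen. Per2 and Dbp had r = -0.25 (rho = -0.31), and r was -0.24 without the 2 farthest arrays. Npas2 and Per1 had r = -0.31 (rho = -0.29, permutation p = 0.00976, adjusted p = 0.220).

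Other genes of the clock were read in the same fit. Of 20 genes that regulate or share work with the core genes, 18 were tested, and in dSPN 5 rose and 7 fell under low levodopa, where 34.1% of all genes were called, and 5 rose and 9 fell under high levodopa, where 45.6% were. Their median change was -0.11 and -0.19, against -0.04 for all genes under both regimens. Bhlhe40, an E-box repressor, rose by 1.45 (SE 0.14, adjusted p = 1.8e-14) and 1.40 (SE 0.14, adjusted p = 6.6e-14), and Nfil3, the repressor that opposes Dbp at D-boxes, by 1.08 (SE 0.22, adjusted p = 4.2e-05) and 1.49 (SE 0.22, adjusted p = 4.6e-08). Ciart, an inhibitor of the activator pair, fell by 1.30 (SE 0.18, adjusted p = 6.5e-09) and 0.65 (SE 0.18, adjusted p = 0.0020), and Timeless by 0.93 (SE 0.29, adjusted p = 0.0092) and 1.00 (SE 0.30, adjusted p = 0.0041).

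In iSPN the lesion called 5 of these 18 lower and none higher, where 6.2% of all genes were called. Ciart fell by 0.99 (SE 0.21, adjusted p = 0.00079), Bhlhe41 by 0.94 (SE 0.20, adjusted p = 0.0010), Sirt1 by 0.79 (SE 0.22, adjusted p = 0.016) and Tef, a D-box activator related to Dbp, by 0.45 (SE 0.07, adjusted p = 3.6e-06). In iSPN 9 mock arrays lay in run 5, with only 1 lesion-saline array, so lesion and run can hardly be told apart there. With run as a fixed block the lesion in iSPN called 106 of all 13271 genes, against 823 without it. Against the same lesion-saline arrays, high levodopa in iSPN raised 4 and lowered none (9.86% of all genes called), namely Sirt1 by 0.87 (SE 0.23), Nfil3 by 0.84 (SE 0.27), Ciart by 0.70 (SE 0.22) and Tef by 0.41 (SE 0.08). Low levodopa raised Tef by 0.27 (SE 0.08) and lowered Rora by 0.41 (SE 0.10), the 2 called there (4.18% of all genes). After the lesion in dSPN, limma called none of the 18 (3 at an unadjusted p under 0.05).

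**Figure D4:**
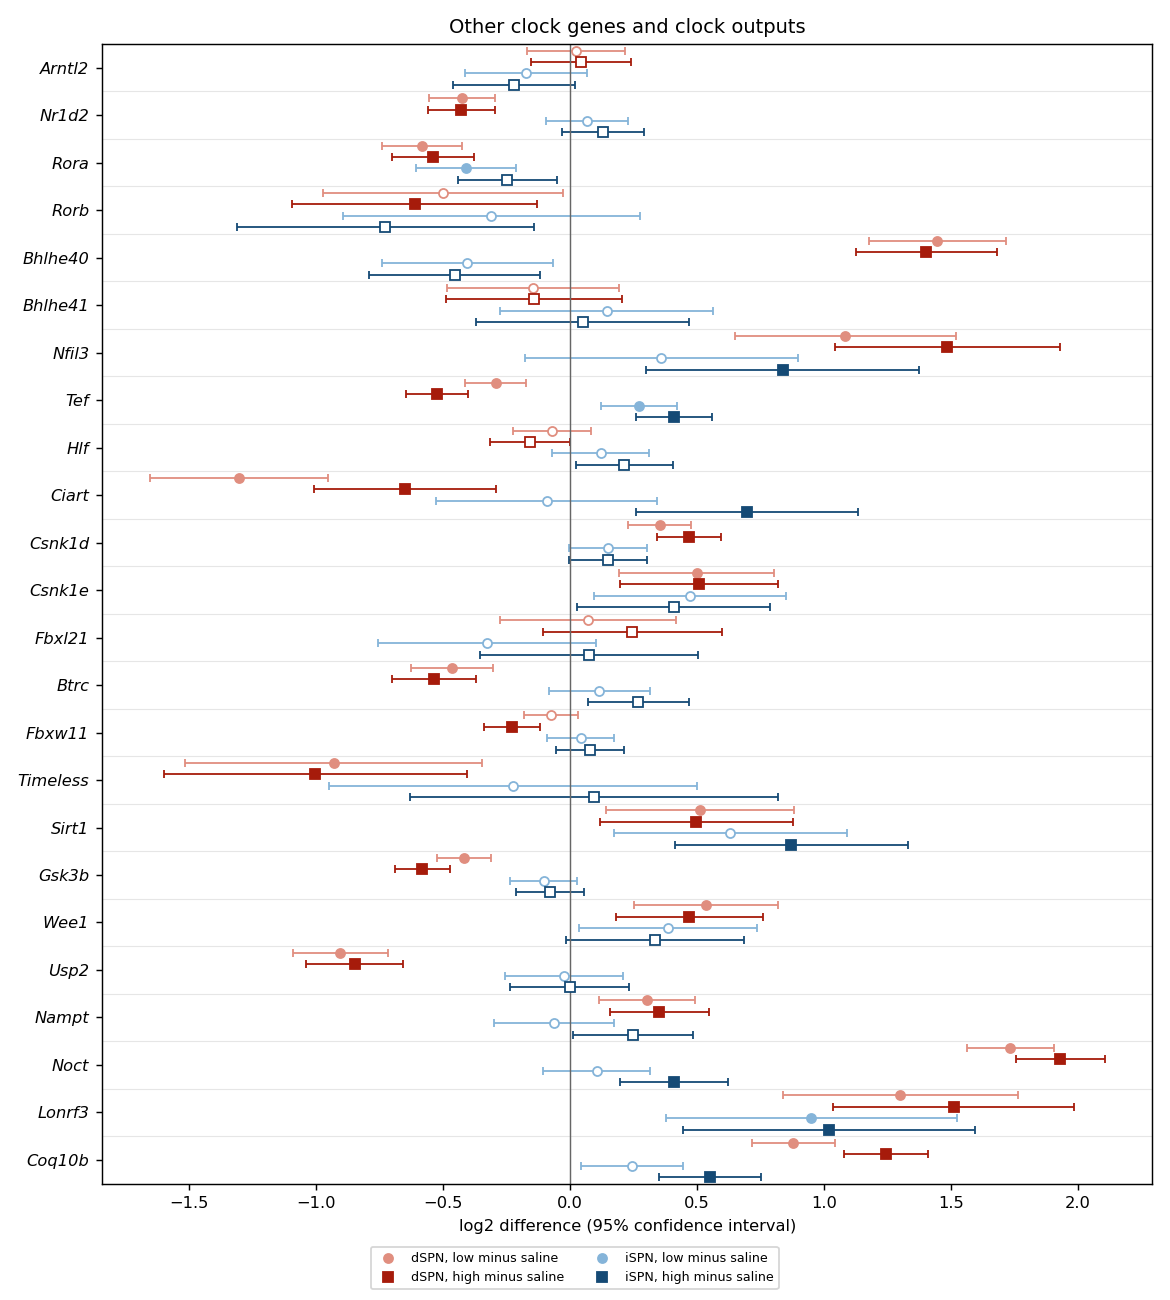
Log2 differences with 95% confidence intervals for the 18 other clock genes (Arntl2 to Gsk3b) and 6 clock outputs (Wee1 to Coq10b) that were tested, low and high levodopa minus saline in lesioned dSPN (red) and iSPN (blue), filled where adjusted p was under 0.05. Noct, Bhlhe40, Lonrf3 and Nfil3 stand highest in dSPN, and Ciart, Timeless and Usp2 lowest.

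Of 7 genes known to be rhythmic outputs in other tissues, 6 were tested, and in dSPN 5 rose and 1 fell under each regimen, where 34.1% of all genes were called under low and 45.6% under high levodopa. Noct, which encodes the rhythmic phosphatase nocturnin, rose by 1.73 (SE 0.09, adjusted p = 3.2e-28) and 1.93 (SE 0.09, adjusted p = 1.0e-30). Lonrf3 rose by 1.30 (SE 0.23) and 1.51 (SE 0.24), and Coq10b by 0.88 (SE 0.08) and 1.24 (SE 0.08). Usp2, a ubiquitin protease gene, fell by 0.90 (SE 0.09, adjusted p = 1.2e-12) and 0.85 (SE 0.10, adjusted p = 1.1e-11). Some rose in iSPN too, 1 under low and 3 under high levodopa, and none fell (4.18% and 9.86% of all genes called). Lonrf3 rose there by 0.95 and 1.02 (SE 0.29 each), and its effects did not differ between the neuron types. Under high levodopa Coq10b rose by 0.55 (SE 0.10) and Noct by 0.41 (SE 0.11) in iSPN.

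Early genes that answer CREB were read beside Per1 and Per2. All 9 that were tested of 10 rose in dSPN under each regimen, with a median change of 2.37 under low and 3.14 under high levodopa, beside -0.04 over all genes, of which 34.1% and 45.6% were called. Arc rose by 3.42 and 4.16 (SE 0.18 each), Crem by 3.31 and 3.91 (SE 0.19 each) and Fosb by 3.26 (SE 0.20) and 3.80 (SE 0.21), beside 1.20 to 1.76 for Per1 and Per2 in the same comparisons. At the low end Dusp1 rose by 1.06 and 1.61, Egr1 by 1.05 and 1.05 and Junb by 0.65 and 1.10 under low and high levodopa; these are named to give the range of the list. After the lesion in dSPN 4 of the 9 fell and none rose, where 2.48% of all genes were called, led by Crem at -0.82 (SE 0.19, adjusted p = 0.0064), Arc at -0.76 (SE 0.19, adjusted p = 0.010) and Dusp1 at -0.63 (SE 0.14, adjusted p = 0.0020). After the lesion in iSPN 5 of the 9 rose and none fell, where 6.2% of all genes were called. Nr4a1 rose by 2.83 (SE 0.29), Fos by 2.43 (SE 0.44) and Crem by 1.41 (SE 0.22). Lesion and run can hardly be told apart in these iSPN values, since most mock arrays lay in a run with only 1 lesion-saline array. In iSPN under high levodopa against lesion with saline, where Per1 fell, 3 of the 9 fell and 2 rose (9.86% of all genes called). Nr4a1 fell by 1.44 (SE 0.30, adjusted p = 0.00064), Dusp1 by 0.72 (SE 0.16) and Egr1 by 0.33 (SE 0.10), and Fosb and Sik1 rose by 1.20 (SE 0.25) and 0.93 (SE 0.20). Against mock, 6 of the 9 were higher and 2 lower in iSPN under high levodopa (18.7% of all genes called). Fosb was 2.01 higher (SE 0.23), Fos 2.00 higher (SE 0.43) and Crem 1.47 higher (SE 0.21), whereas Per1 was 0.51 lower. That Per1 difference was not called with run as a fixed block or with the glial covariate. Only 1 iSPN mock array shared a run with the high-levodopa arrays.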

How the data were processed

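The deposited table holds log2 expression per probe set, 1 column an array, from an Affymetrix mouse expression array. RMA in the affy package made the values, per the submitters' processing notes, which state no versions. RMA brings all arrays to nearly the same distribution (array medians 4.31 to 4.42), so changes are relative to the other genes on an array, and large changes tend to be understated. No scanner files were used, so the number of arrays limits the precision.

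A gene was read from the single-symbol probe set of highest mean over all arrays; of 18194 genes, 13271 had a mean above the 40th percentile of probe sets (3.55). Groups came from the labels. A fit in limma 3.58.1 (R 4.3.3; lmFit, eBayes) with 8 group means and 69 residual degrees of freedom took in all 77 arrays and gave the pairwise, interaction and neuron type comparisons; tests were two-sided. The procedure was tested on simulated data. Every probe set of a member above the filter was also fitted over the 23974 that passed. Nothing beyond 1 animal per array is said of how replicates were raised or processed together.

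Title numbers fall into 7 stretches of rising animal number (here runs), whose meaning is unstated. Alternatives were run as a fixed or random block, each neuron type on its own arrays, array weights, 1 array left out, no filter, the mean over a gene's probe sets, median centring and a glial covariate. The members and the lists of other genes were chosen with earlier results of these data known. All members are named; of the clock partners and outputs up to 4, and of the early genes up to 3, called genes with the largest change per comparison; and the 3 genes most like each member. More early genes than that are named in 2 places. These are the low end of the list in dSPN under levodopa, and all called ones in iSPN under high levodopa against saline. Drd1 and Drd2 check the line.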

Additional observations from a re-analysis of the deposited data

Results flagged for a closer look

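The lesion and levodopa effects on several clock genes differed between dSPN and iSPN when the difference itself was tested in the 8-group limma fit (effect in dSPN minus effect in iSPN, adjusted p under 0.05). For low levodopa against saline in lesioned mice the differences were 1.54 for Per1, 1.38 for Per2, -1.14 for Per3, 0.79 for Cry1, -0.44 for Cry2, -1.07 for Nr1d1 and -1.37 for Dbp. For high levodopa they were -1.31 for Arntl, -0.35 for Npas2, 2.37 for Per1, 1.58 for Per2, 0.43 for Cry1, -0.39 for Cry2, -1.18 for Nr1d1 and -1.50 for Dbp. For the lesion against mock they were -0.67 for Per1 and 1.04 for Per3. The neuron types share no run of arrays. With run as a fixed block, neither lesion difference passed (Per1 -0.52, adjusted p = 0.642; Per3 1.25, adjusted p = 0.123), and of the high-levodopa differences those of Arntl, Npas2 and Cry1 did not pass.

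No member's value on a single array stood apart from its group by Dixon's criterion, in 50 sets of 7 to 10 arrays (10 genes in 5 groups). The lesioned dSPN groups, of 11 or 12 arrays, were not tested this way.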

How the results depend on the processing

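Of 160 differences computed for the 10 genes, 63 were called and 42 stayed called under every one of the 9 alternatives that could be fitted. None of the 63 turned sign. Of 84 called under no setting, 18 turned sign somewhere, the largest turned value being 0.39 in size. Clock turned: against lesion with saline its low-levodopa change in dSPN was -0.092 with run as a fixed block and -0.25 with the mean over its probe sets, and its high-levodopa change 0.058 with centred arrays and 0.11 with the glial covariate. Against mock these were -0.097, -0.31, 0.060 and 0.058. The cause was not tested.

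Counts of called members moved by over 1.5 times as follows. With run as a fixed block, which cannot be fitted to the neuron type comparison, there were 0 for lesion, high levodopa against saline, and either regimen against mock in iSPN, 0 for the lesion interaction, 5 for the high-levodopa interaction and 1 between the regimens in dSPN. The lesion in dSPN called 2 with run as a random block, each type on its own arrays, array weights, probe set means, the glial covariate, or without the iSPN mock array that correlated least. The lesion in iSPN called 1 with its own arrays or probe set means. In iSPN against mock, low levodopa called 2 with a random block, own arrays or probe set means, and high levodopa called 1 with own arrays and 0 with the glial covariate. The lesion interaction called 1 without that array, without the filter, with probe set means or with centring. The neuron type comparison called 3 with probe set means or the glial covariate. Within-group co-variation passed for 0 pairs under every setting.

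Signal near the filter limits Arntl, and the third probe set of Per2 was near it on all arrays. No paired analysis was possible because each title number belongs to 1 animal, and replicate numbers here only name arrays.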
